A study of Mus musculus with 2 samples.

Results

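The epidermal differentiation complex is a run of genes on mouse chromosome 3 that encode proteins of the cornified envelope, the tough layer that replaces the membrane of the outermost skin cells. The S100A genes, which encode small calcium-binding proteins with paired EF-hand motifs, flank it on both sides. The members were chosen by symbol, as every gene named Sprr, Lce or S100a with a number, together with Lor, Ivl, Flg, Flg2, Hrnr, Rptn, Tchh and Crct1. This gave 62 of the 55363 genes listed, made up of 13 Sprr2 genes, 4 other Sprr genes, 21 Lce genes, 16 S100a genes and 8 others. Of these, 61 lie on chromosome 3 between 90511034 and 93564643 (GRCm38, the assembly also called mm10), a span of 3.05 Mb, and S100a11-ps, a processed pseudogene, lies on chromosome 12.

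Their expression was compared in whole uterus on gestational day 4 (the plug being day 1), 1 library being of the Mettl14 genotype f/f and 1 of d/d. Mettl14 encodes a subunit of the enzyme that writes N6-methyladenosine on RNA. By the usual notation f/f marks floxed and d/d deleted alleles. Both groups were females of 6 to 8 weeks mated with fertile males, and the sources used here do not give the Cre line, the strain or whether animals were pooled in a library. Values are FPKM, fragments per kilobase of transcript and per unit of library size, and the depth was estimated at 19500000 (f/f) and 23200000 (d/d) fragments. With a single library on each side no spread between animals can be given and no test made, and "higher" and "lower" below compare these libraries only. Mettl14 itself was 13.6 FPKM in f/f and 3.21 FPKM in d/d. The 8 uterine marker genes, among them Hoxa10, Esr1, Pgr and Foxa2, were all detected in both libraries, with Hoxa10 at 357 and 63.7 FPKM and Hoxa11 at 193 and 40.3 FPKM in f/f and d/d.

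Small proline-rich (Sprr) proteins are cross-linked into the cornified envelope by transglutaminases, and in the mouse uterus Sprr2 genes are known as estrogen-induced genes of the epithelium. Lce proteins are late envelope proteins of skin, and loricrin, involucrin and filaggrin, encoded by Lor, Ivl and Flg, are its classic structural components. S100 proteins work largely through partners, such as annexin A2 for S100a10, and S100a8 and S100a9 form the calprotectin heterodimer that is abundant in neutrophils.

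Because the Sprr2 genes are tandem copies, the sequences before their starts can be set side by side. RefSeq held promoter windows for 53 of the 62 members (57 windows, GRCm38.p6), cut here to the 250 bases before the annotated start. Among the Sprr genes, Sprr2g, Sprr2c-ps and Sprr2j-ps had no window and were not examined. Below are 3 Sprr2 copies that were higher in d/d (Sprr2f, Sprr2d and Sprr2e), 2 copies listed at 0 FPKM in both libraries (Sprr2i and Sprr2k), and the pair Sprr1a, which was higher in d/d, and Sprr1b, which was listed at 0. Each is written 5′ to 3′ on the strand of its gene, and capitals mark matches of 3 motifs, searched on both strands. The AP-1 motif was spelled TGANTCA, which is its own reverse complement. The octamer, a motif bound by POU factors, was spelled ATGCAAAT. The TATA box was spelled TATAAA. No match of one overlapped a match of another in these windows. The windows are chr3:92364937-92365186, chr3:92338890-92339139, chr3:92351893-92352142, chr3:92407741-92407990 and chr3:92432332-92432581 on the plus strand, and chr3:92485882-92486131 and chr3:92438780-92439029 on the minus strand.
Sprr2f: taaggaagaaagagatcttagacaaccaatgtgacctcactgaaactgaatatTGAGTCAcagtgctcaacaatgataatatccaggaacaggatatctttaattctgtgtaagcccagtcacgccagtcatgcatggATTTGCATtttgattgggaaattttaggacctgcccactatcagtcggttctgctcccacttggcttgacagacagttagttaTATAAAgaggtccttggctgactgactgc
Sprr2d: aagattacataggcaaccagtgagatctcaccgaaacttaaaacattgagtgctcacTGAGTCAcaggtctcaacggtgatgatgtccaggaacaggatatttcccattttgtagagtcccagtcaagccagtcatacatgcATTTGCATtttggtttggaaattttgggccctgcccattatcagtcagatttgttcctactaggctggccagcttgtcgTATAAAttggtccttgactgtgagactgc
Sprr2e: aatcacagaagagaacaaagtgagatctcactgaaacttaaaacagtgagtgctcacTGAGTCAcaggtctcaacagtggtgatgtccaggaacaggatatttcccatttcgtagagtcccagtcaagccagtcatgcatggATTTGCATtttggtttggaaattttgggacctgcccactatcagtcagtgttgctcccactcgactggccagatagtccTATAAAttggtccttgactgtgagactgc
Sprr2i: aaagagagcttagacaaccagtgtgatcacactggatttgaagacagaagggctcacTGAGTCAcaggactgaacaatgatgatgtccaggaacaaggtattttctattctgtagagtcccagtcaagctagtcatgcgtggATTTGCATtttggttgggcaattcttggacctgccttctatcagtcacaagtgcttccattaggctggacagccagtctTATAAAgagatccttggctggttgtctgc
Sprr2k: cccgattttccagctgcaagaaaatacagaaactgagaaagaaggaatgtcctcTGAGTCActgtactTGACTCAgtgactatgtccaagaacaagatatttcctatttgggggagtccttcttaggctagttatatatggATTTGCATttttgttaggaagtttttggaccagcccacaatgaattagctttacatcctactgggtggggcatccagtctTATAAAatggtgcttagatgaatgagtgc
Sprr1a: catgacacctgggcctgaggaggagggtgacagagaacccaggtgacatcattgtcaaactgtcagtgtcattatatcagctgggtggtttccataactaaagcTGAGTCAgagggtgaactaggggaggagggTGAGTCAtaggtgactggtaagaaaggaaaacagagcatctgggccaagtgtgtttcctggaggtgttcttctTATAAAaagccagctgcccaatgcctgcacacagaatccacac
Sprr1b: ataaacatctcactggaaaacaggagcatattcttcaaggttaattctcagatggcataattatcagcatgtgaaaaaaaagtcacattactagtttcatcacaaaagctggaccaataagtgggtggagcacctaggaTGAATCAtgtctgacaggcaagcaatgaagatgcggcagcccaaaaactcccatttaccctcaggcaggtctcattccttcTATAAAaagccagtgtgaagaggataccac

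The same layout stood before copies with and without signal. In all 7 Sprr2 windows that held these motifs (Sprr2b, Sprr2d, Sprr2e, Sprr2f, Sprr2h, Sprr2i and Sprr2k) the TATA box match ran from 29 to 24 bases before the start. An octamer match lay on the opposite strand, with its farther end 108 to 112 bases before the start. An AP-1 match had its farther end 193 to 198 bases before the start, and Sprr2k had an additional one at 182. Over all 32851 RefSeq windows of this length, the AP-1 letters were found in 6.75%, the octamer letters in 1.6% and the TATA letters in 12.4%. The octamer letters were chosen after the windows were read. Since the Sprr2 genes are tandem copies, the 7 windows are not independent of one another. The Sprr2f window was as close to that of Sprr2i, at 72.5% identity in a pairwise alignment, as to that of Sprr2e, at 72.6%. Sprr1a, the higher member of its pair, had 2 AP-1 matches and Sprr1b had 1.

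Further motifs were searched in the same windows. The estrogen response element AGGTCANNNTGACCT was found in no Sprr2, other Sprr, Lce or S100a window, even with 1 mismatch allowed, and it was found in 0.128% of all windows. The hexamer AGGTCA, a single arm of it, was found in 1 of the 10 Sprr2 windows, that of Sprr2f, where the match lay from 219 to 214 bases before the start on the opposite strand, and in 14% of all windows. The ETS core GGAAG was in 7 of the 10 Sprr2 windows and 64.1% of all windows, and the KLF core CACCC in 2 of 10 and 52%. Sprr2a1 and Sprr2a2 had identical windows without AP-1, octamer or TATA letters. The Sprr2a3 window, 79.9% identical to theirs, held none of the 3 either. Whether RefSeq starts these genes at the same point as the other copies was not tested. None of the 20 Lce windows held AP-1 or octamer letters. A match describes letters only, and the absence of one says nothing about sequence outside the window.

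**Figure D1:**
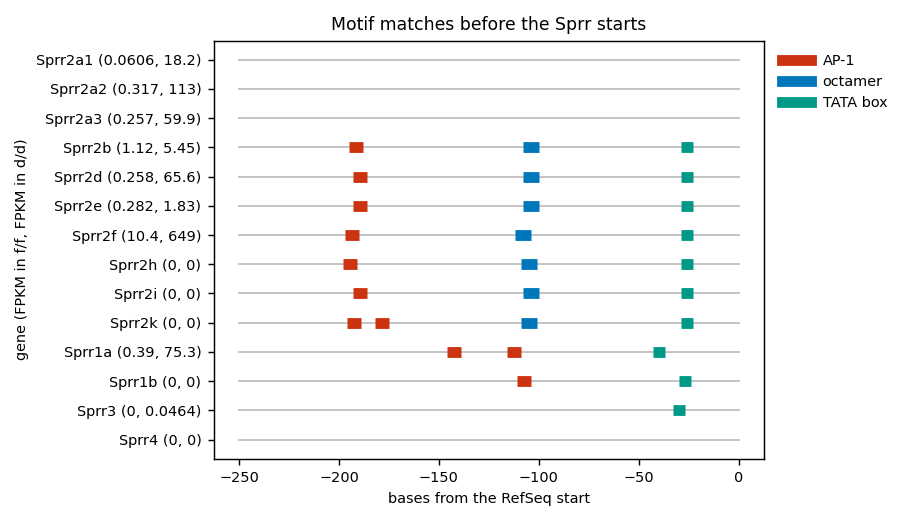
Matches of the AP-1, octamer and TATA letters in the 250 bases before the RefSeq start of each Sprr gene that had a window. Sprr2g, Sprr2c-ps and Sprr2j-ps had none. Brackets hold the FPKM in the f/f and the d/d library, and the x axis is the distance from the start in bases. Sprr2h, Sprr2i and Sprr2k, listed at 0 in both libraries, hold the same 3 kinds of match at nearly the same places as Sprr2b, Sprr2d, Sprr2e and Sprr2f.

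Of the 62 members, 26 reached 1 FPKM in at least one library, 4 were above 0 but under 1 FPKM, and 32 were listed at 0 in both. Differences were expressed on the log2 scale as d/d over f/f of (FPKM + 1), which understates the change of genes near or under 1 FPKM, and a ratio of 1 or more in size, 2-fold, was counted. By this rule d/d was higher for 13 members, lower for 3 and neither for 46. Among all 55363 listed genes 2.98% were higher and 2.43% lower, and among the 16263 genes at 1 FPKM or more in a library the shares were 10.2% and 8.28%. The median log2 ratio was 0.00 over the 62 members and 0.00 over all listed genes, most genes of either set being at or near 0 in both libraries. The families differed from one another. All 8 Sprr2 genes that reached 1 FPKM were higher, no Lce gene reached it, and 9 of the 13 S100a genes that reached it were neither higher nor lower. Some members passed 1 FPKM through d/d alone, 5 of the 8 Sprr2 genes among them, so their being higher follows in part from the filter.

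Among the members, the Sprr2 genes and Sprr1a had the largest log2 ratios. Sprr2f was 10.4 FPKM in f/f and 649 FPKM in d/d, 62.4-fold higher. Counting error alone, from about 67 and 4656 fragments, gives a 95% interval of 49 to 80.6 for this fold. On the log2 scale its ratio was 5.83, and 0.117% of the 16263 expressed genes had a ratio as high or higher. Sprr2f was by far the most abundant copy in both libraries, where it gave 73.1% (f/f) and 65.3% (d/d) of the summed Sprr2 FPKM. Its transcript is well separated from the other copies, since 0.714% of its 50-base words recur in transcripts of another gene.

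Sprr2g, which the annotation classes as a polymorphic pseudogene, was 1.53 FPKM in f/f and 81.4 FPKM in d/d. The fold of 53.1 has a counting interval of 29.5 to 107, and none of its 50-base words recur elsewhere. Sprr2d was 0.258 FPKM in f/f, about 2 fragments, and 65.6 FPKM in d/d, about 580 fragments. With so few fragments in f/f its 255-fold ratio has a counting interval of 70.2 to 2110.

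Sprr2b and Sprr2e were the low copies in d/d. Sprr2b was 1.12 FPKM in f/f and 5.45 FPKM in d/d, a fold of 4.86 with a counting interval of 2.54 to 10.3, which does not reach the intervals of Sprr2f and Sprr2g. Sprr2e was 0.282 and 1.83 FPKM, about 2 and 15 fragments, with a fold of 6.5 and an interval of 1.51 to 58.6, which overlaps those of Sprr2f and Sprr2g. Its log2 ratio of 1.14 became 0.99 when both libraries were rescaled to a smaller, equal sum (TPM). The sums were nearly equal before, and the rescaling lowers all values against the pseudocount of 1. With a pseudocount of 0.1 the ratio of Sprr2e was 2.34. Its place above the 2-fold rule is thus marginal and depends on the pseudocount. Of the 50-base words of Sprr2b, 14.1% recur in other genes, chiefly the Sprr2a copies, and of those of Sprr2e 10.2%, in Sprr2i, Sprr2d and Sprr2f, so their low values may include fragments of other copies. Sprr2e and Sprr2f are neighbours, and in d/d their levels per length were 1.83 and 649 FPKM.

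Sprr2a1, Sprr2a2 and Sprr2a3 cannot be told apart with confidence. Of their 50-base words, 96.3%, 96.5% and 61.1% recur in another gene, chiefly one another, and the annotated model of Sprr2a2 begins inside that of Sprr2a1. Their deposited values were 0.0606 and 18.2 FPKM, 0.317 and 113 FPKM, and 0.257 and 59.9 FPKM in f/f and d/d. Summed, the 3 copies were 0.634 FPKM in f/f and 191 FPKM in d/d. All 3 were under 1 FPKM in f/f, and the f/f value of Sprr2a1 stands for about 3 fragments.

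Added over the family, Sprr2 FPKM was 14.2 in f/f and 995 in d/d, 69.9-fold higher (log2 ratio 6.03). Without Sprr2f the sums were 3.83 and 346 FPKM. The sum was higher with that copy and without it.

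Position divided the Sprr2 cluster. The 8 copies with signal, Sprr2a1 to Sprr2g, lie within 159.4 kb from 92215799 to 92375229 on chromosome 3, and the only other copy among them is the short processed pseudogene Sprr2c-ps, listed at 0. The next 4 copies, Sprr2h, Sprr2i, Sprr2j-ps and Sprr2k, begin 10.5 kb beyond Sprr2g, span 48.2 kb from 92385685 to 92433925, and were all listed at 0 in both libraries. Of these silent copies, 0% of the 50-base words of Sprr2h and Sprr2k, 0.159% of those of Sprr2j-ps and 12.5% of those of Sprr2i recurred in other genes. Past them, Sprr1b was listed at 0, Sprr3 had a value in d/d alone, 0.0464 FPKM or about 1 fragment, and Sprr4 was listed at 0. Sprr1a, between Sprr3 and Sprr4, was 0.39 FPKM in f/f and 75.3 FPKM in d/d, about 4 and 883 fragments. Its fold of 193 has a counting interval of 75 to 709, and none of its 50-base words recur elsewhere.

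**Figure D2:**
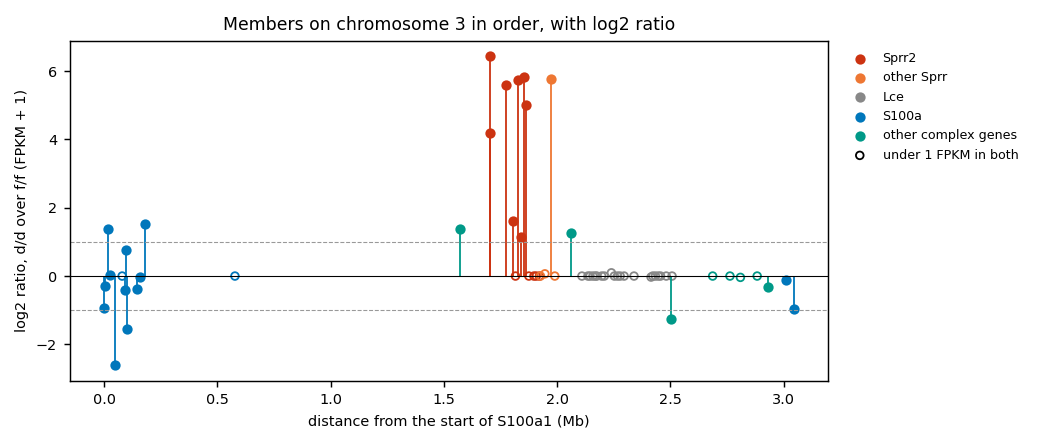
Log2 ratios, d/d over f/f of (FPKM + 1), for the 61 members on chromosome 3, against the distance of their start from that of S100a1 in Mb; filled points reached 1 FPKM in a library, open points did not, and dashed lines mark the 2-fold rule. The tall points belong to Sprr2 genes and Sprr1a, open Sprr and Lce points follow at 0, and S100a genes at the left end go both ways.

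The structural envelope genes outside the Sprr family were low. Lor was 0.913 FPKM in f/f and 3.94 FPKM in d/d, about 27 and 135 fragments, a fold of 4.32 with a counting interval of 2.84 to 6.79. Ivl was 0.123 and 1.69 FPKM, about 4 and 64 fragments, and the interval of its 13.7-fold ratio runs from 5.1 to 51.8. Both passed 1 FPKM in d/d alone. Crct1, a small cysteine-rich gene of the complex, went the other way, with 1.41 FPKM in f/f, while d/d listed it at 0. Tchh, which encodes trichohyalin of the hair follicle, was 1.02 and 0.622 FPKM, a 1.64-fold lower level with an interval of 1.22 to 2.21, and it did not pass the 2-fold rule.

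The genes of terminal skin differentiation were close to silent. Flg, Flg2 and Rptn were listed at 0 in both libraries, and hornerin, Hrnr, had a value in f/f alone, 0.0277 FPKM or about 6 fragments. Of 21 Lce genes 19 were listed at 0 in both libraries, namely Lce6a, Lce1a1, Lce1b, Lce1a2, Lce1c, Lce1d, Lce1e, Lce1f, Lce1h, Lce1i, Lce1j, Lce1k, Lce1l, Lce3b, Lce3c, Lce3d, Lce3e, Lce3f and Lce1m. The exceptions were Lce3a at 0.194 and 0.169 FPKM, about 1 fragment in each library, and Lce1g, with a value in d/d alone of 0.0683 FPKM, also about 1 fragment. The whole Lce family summed to 0.194 FPKM in f/f and 0.238 FPKM in d/d, where Sprr2 summed to 14.2 and 995.

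**Figure D3:**
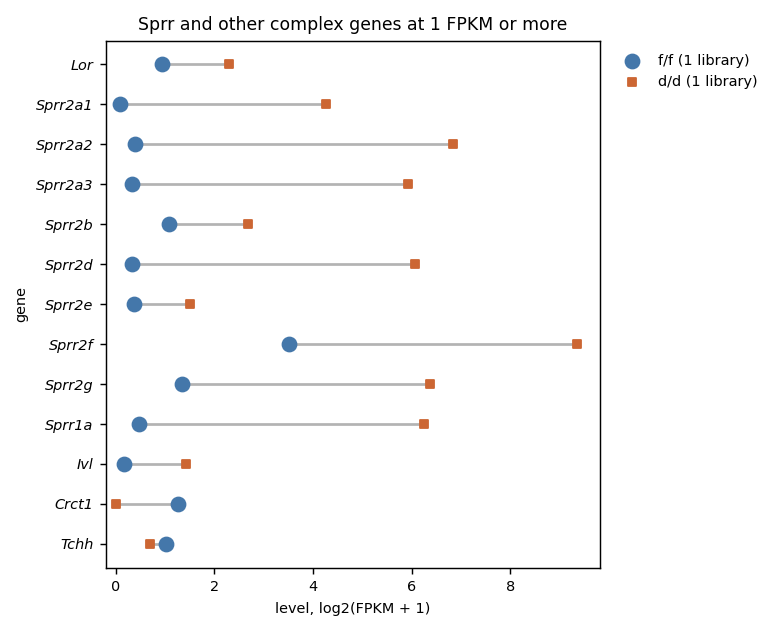
Levels of the Sprr, Lor, Ivl, Crct1 and Tchh genes that reached 1 FPKM, as log2(FPKM + 1), with a circle for the f/f library and a square for the d/d library, in chromosome order. Sprr2f, Sprr2a2, Sprr2g, Sprr1a, Sprr2d and Sprr2a3 have the long lines, while Sprr2b and Sprr2e lie near Lor and Ivl.

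The S100a genes were the abundant members, and their sum was lower in d/d. The 16 genes summed to 3273 FPKM in f/f and 1684 FPKM in d/d, a 1.94-fold lower level. S100a10 and S100a6 together made up 79.6% of the f/f sum and 67.6% of the d/d sum. S100a10, the light chain of the annexin A2 complex, was 1445 FPKM in f/f and 743 FPKM in d/d, with a log2 ratio of -0.96, just inside the 2-fold rule. S100a6, also called calcyclin, was 1159 and 395 FPKM, 2.94-fold lower, and its log2 ratio of -1.55 was matched or exceeded downward by 3.45% of expressed genes. None of the 50-base words of either gene recur in another gene.

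Other well expressed S100a genes differed less. S100a1, best known in striated muscle, was 142 FPKM in f/f and 73.2 FPKM in d/d, with a log2 ratio of -0.95, and it crossed the rule downward, as S100a10 did, when upper quartile scaling was used (-1.03 and -1.04). S100a4, a gene expressed by fibroblasts and other motile cells, was 163 and 122 FPKM. The annotation places 47.4% of its 50-base words also in Gm42674, an overlapping gene model listed at 0 in both libraries. S100a13, which takes part in the export of growth factors that lack a signal peptide, was 63.5 and 51.2 FPKM, a 1.24-fold lower level with a counting interval of 1.1 to 1.4. S100a16 was 184 and 187 FPKM.

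S100a11, a partner of annexin A1, was 97.7 FPKM in f/f and 89.4 FPKM in d/d, a 1.09-fold difference whose interval of 0.955 to 1.25 includes 1. Of its 50-base words 41.1% recur in other genes, mainly Gm12854, a processed pseudogene of 297 nt that the files list at 411 and 534 FPKM. Fragments of the 2 may have been shared out between them, so the level of S100a11 is uncertain. The pseudogene of the rule itself, S100a11-ps, was listed at 0 in both libraries.

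Among the low S100a genes, some differed strongly. S100a3, known from the hair cuticle, was 6.36 FPKM in f/f and 0.207 FPKM in d/d, 30.7-fold lower, and its log2 ratio of -2.61 on (FPKM + 1) was the lowest among the members. Its annotated model spans S100a2, which was listed at 0 in both libraries. S100a14, an epithelial S100 gene, was 0.648 and 3.27 FPKM and passed 1 FPKM in d/d alone. S100a5 was 0.379 and 1.35 FPKM, with a log2 ratio of 0.77 that lay past the rule with smaller pseudocounts (1.07 with 0.5 and 1.59 with 0.1). S100a7a, a relative of human psoriasin, was 1.27 and 0.742 FPKM, and S100a7l2 was listed at 0 in both.

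The 2 calprotectin genes differed in their ratios. S100a8 was 8.21 FPKM in f/f and 8.08 FPKM in d/d, about 35 and 37 fragments, a ratio of 0.984 with a counting interval of 0.603 to 1.61. S100a9 was 2.67 and 9.51 FPKM, about 12 and 48 fragments, a fold of 3.56 with an interval of 1.86 to 7.36. The FPKM ratio of S100a8 over S100a9 was thus 3.07 in f/f and 0.849 in d/d. Of 12 other neutrophil genes, 3 were higher in d/d (Ly6g, Itgam and Fpr1) and none was lower. Of the 12, 7 reached 1 FPKM in a library, and of all genes at that level 10.2% were higher and 8.28% lower. The list summed to 123 FPKM in f/f and 207 FPKM in d/d, of which Retnlg, not past the rule, gave 104 and 150 FPKM. The granule genes Elane and Ngp were listed at 0 in both libraries. The part of neutrophils in the S100a9 difference was not tested.

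**Figure D4:**
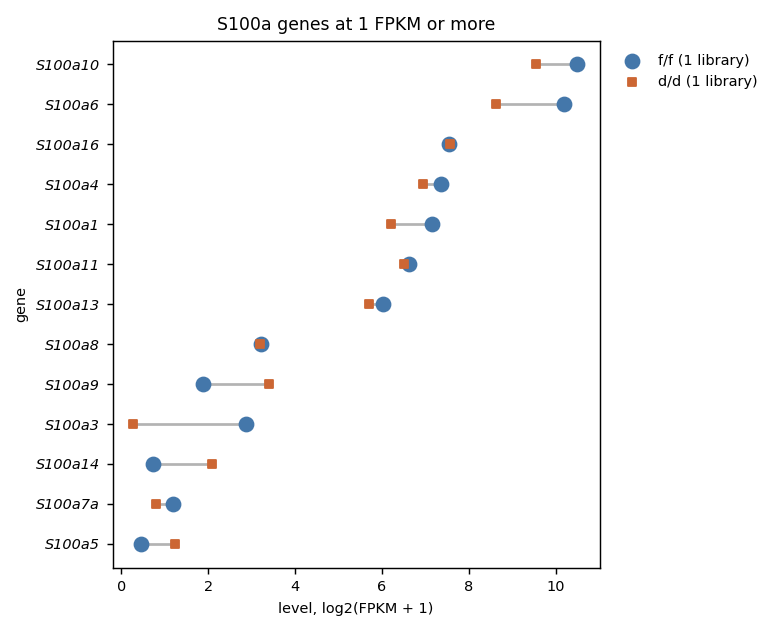
Levels of the 13 S100a genes that reached 1 FPKM, as log2(FPKM + 1), ordered by mean FPKM, with a circle for the f/f library and a square for the d/d library. S100a10, S100a6 and S100a1 are lower in d/d, S100a16, S100a11 and S100a8 nearly coincide, and the low genes S100a3, S100a9 and S100a14 differ in both directions.

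Few genes within the interval but outside the member rule could be called by the 2-fold rule, and none passed it. Between S100a1 and S100a10 the annotation holds 60 further listed genes, 16 of them protein-coding. Only 6 reached 1 FPKM, 5 processed pseudogenes and Gm9774. The rule requires this level, so the rest could not be called. Of all listed genes at this level 10.2% were higher and 8.28% lower, and 6 genes are too few to set against these shares. The most abundant was the pseudogene Gm4202, among the Lce genes, at 119 and 120 FPKM. The pseudogenes Gm5850 and Gm5851, which lie among the Sprr2a copies, came nearest, at 1.18 and 2.96 FPKM and at 1.13 and 2.98 FPKM (log2 ratios 0.86 and 0.91). Gm9774, which lies between Sprr2j-ps and Sprr2k, was 61.9 FPKM in f/f and 53 FPKM in d/d.

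Genes that act on the cornified envelope were largely low in these libraries. Of 27 genes for cross-linking, proteolysis and lipid assembly of the envelope, 1 was higher, 2 were lower and 24 passed neither way. Just 8 of the 27 reached 1 FPKM in a library, which the rule requires, so the rest could not be called. For all genes at that level the shares were 10.2% higher and 8.28% lower. Of the 27, 10 were listed at 0 in both libraries. The median log2 ratio over the 27 was 0.00, most of them being low. Envoplakin, Evpl, was higher at 0.769 and 3.42 FPKM. The transglutaminase of keratinocytes, Tgm1, was lower at 3 and 0.548 FPKM, as was the protease inhibitor cystatin M, Cst6, at 2.32 and 0.0471 FPKM. The most abundant were Cstb, another inhibitor of cysteine proteases, at 230 and 430 FPKM, tissue transglutaminase, Tgm2, at 158 and 265 FPKM, and suprabasin, Sbsn, at 11.7 and 9.96 FPKM.

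Epidermal transcription factors differed in both directions. Of 25 listed, 6 were higher, 4 lower and 15 neither, with a median of 0.27. In all 20 of them reached 1 FPKM in a library, and of all genes at that level 10.2% were higher and 8.28% lower. Elf3, an ETS factor of epithelia, was 6.19 FPKM in f/f and 355 FPKM in d/d. Also higher were the epithelial factors Klf4, Grhl2, Ovol2 and Ehf, at 16.6 and 115, 2.89 and 20.1, 2.1 and 20, and 9.93 and 43.5 FPKM. Lower were Prdm1 at 18.6 and 4.89 FPKM, Cebpa at 34.4 and 14.1, Hopx at 29.5 and 4.13, and the AP-1 subunit Fosl1, with 2.32 FPKM in f/f but no signal listed in d/d. The AP-1 subunit Junb was 63 and 90.5 FPKM and Cebpb 85.5 and 141 FPKM, neither past the rule. Trp63, the master factor of stratified epithelia, was 0.252 and 0.0522 FPKM.

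The S100 genes that lie elsewhere in the genome and the partners of S100 proteins were looked at in the same way. S100g, which encodes the calcium-binding protein calbindin-D9k, was 2059 FPKM in f/f and 84.3 FPKM in d/d, 24.4-fold lower, and in f/f it exceeded every S100a gene. S100b and S100z were 0.254 and 0.435 FPKM, and listed at 0 and at 0.409 FPKM. Of 14 partners and receptors 12 reached 1 FPKM in a library, and of all genes at that level 10.2% were higher and 8.28% lower. Among the 14, 3 were higher and none was lower, with a median of 0.24. These 3 were the calcium channel Trpv6 at 16.3 and 69.5 FPKM, Cd68 at 24.2 and 50.8 FPKM, and Anxa1 at 126 and 259 FPKM. Cd68 is also one of the macrophage markers given below. Annexin A2, Anxa2, was 497 and 457 FPKM, so the ratio of S100a10 over Anxa2 FPKM was 2.91 in f/f and 1.62 in d/d. Bsg, a receptor of S100a9, was 535 and 508 FPKM.

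Markers of other cells differed between the libraries beside these genes. In whole tissue, fewer cells of a type and less RNA per cell cannot be told apart. Of 12 simple epithelium markers 10 were higher in d/d and none was lower, and they summed to 622 FPKM in f/f and 2867 FPKM in d/d, 4.61-fold higher. Single markers of this list ranged widely. Krt19 was 4.87 and 348 FPKM, 71.5-fold higher, and Krt7 was 12.4 and 274 FPKM, 22.1-fold higher, while Wfdc2 was 179 and 417 FPKM and Krt18 101 and 158 FPKM. The fold of the Sprr2 sum, 69.9, was below that of Krt19 and above those of all other markers of this list. The next highest marker was Elf3 at 57.3-fold, and the median log2 ratio of the list was 2.50. Of 12 markers of stratified squamous epithelium, the tissue of cervix, vagina and skin, 2 were higher (Krt13 and Krt6a) and 10 neither. Just 3 of the 12 reached 1 FPKM in a library, which the rule requires, so the rest could not be called. Krt6a was 0.0253 and 1.98 FPKM, and Krt13 had 3.81 FPKM in d/d but no signal listed in f/f. Sums over the 12 were 7.59 and 13.7 FPKM, of which Krt10, not past the rule, gave 6.51 and 6.38 FPKM. The basal keratins Krt5 and Krt14 had values in d/d alone, of 0.181 and 0.092 FPKM. Fat cell markers summed to 3.92 and 114 FPKM, of which Cfd gave 0.0867 and 66.6 FPKM. By the rule 5 of these 8 were higher and 3 neither. Macrophage markers summed to 486 and 1231 FPKM, of which Lyz2 gave 334 and 886 FPKM. Here 4 of 8 were higher and 4 neither. The stroma list summed to 3818 and 2175 FPKM and the smooth muscle list to 4936 and 3222 FPKM, beside an S100a sum of 3273 and 1684. Neither list moved as a whole. In the stroma list 5 of 8 genes were lower and 3 neither, among these Dcn at 911 and 811 FPKM. In the smooth muscle list 3 of 8 were lower and 5 neither, among these Acta2 at 1211 and 1130 FPKM. Of 21 estrogen-responsive genes outside the members 13 were higher, 1 was lower and 7 passed neither way, with a median of 2.98. Among all genes at 1 FPKM or more in a library 10.2% were higher and 8.28% lower. The lists were chosen with earlier results of these data known, so their counts are not independent of these data. The lower gene was Areg, at 5.39 and 0.0935 FPKM (-2.55), and Pgr, Igf1, Ccnd1 and Wnt4 were among those that passed neither way. Log2 ratios in this list reached or passed that of Sprr2f (5.83) for lactoferrin, Padi1 and Lcn2. Lactoferrin, Ltf, was 3.71 and 647 FPKM (7.10), Padi1 was 3.96 and 338 FPKM (6.09) and Lcn2 was 13.4 and 878 FPKM (5.93). The part of cell composition in the Sprr and S100a differences was not tested.

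**Figure D5:**
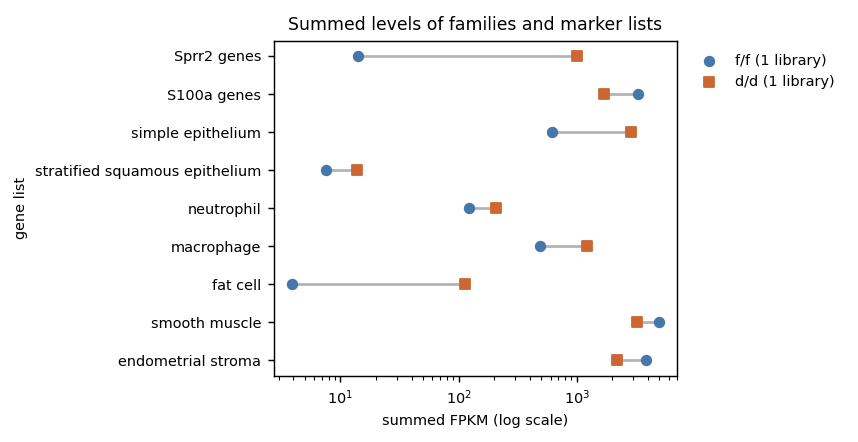
Summed FPKM of the Sprr2 and S100a genes and of 7 marker lists, on a log axis, with a circle for the f/f library and a square for the d/d library. The Sprr2 sum goes from 14.2 to 995 FPKM and the simple epithelium sum from 622 to 2867, and the S100a, smooth muscle and stroma sums are lower in d/d.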

How the data were processed

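RNA sequencing of whole uterus gave 1 library per genotype, f/f and d/d. Per the submitters' processing notes, HISAT2 2.2.1, Cufflinks 2.2.1 and build mm10 were used. The authors deposited FPKM per gene, with no counts, and the sources used here do not give the annotation release or strandedness. FPKM of short transcripts and near copies is uncertain.

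Both files list 55483 rows. Rows of 1 symbol were added up, 120 in all being extra rows, which left 55363 genes with none dropped. No test was made. A log2 ratio on (FPKM + 1), pseudocount 1, of 1 or more in size counted as higher or lower.

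Depth was fitted on genes with 1 transcript of 700 to 4000 nt, as the depth and mean fragment length at which low FPKM values become whole fragments. With fragment lengths of 280 and 300 nt, 87.9% of 1657 low values in f/f and 88.1% of 1600 in d/d lay within 0.1 of a whole number, at 19500000 and 23200000 fragments. Fragment numbers are given for members whose annotated transcripts are over 480 nt and within 5% of each other in length. A whole multiple of a depth also gives whole numbers, and the depth in f/f had such a second solution outside the range searched, so fragment numbers are approximate. Their 95% intervals for a fold are exact (Clopper-Pearson), cover counting error only and depend on this fitted depth.

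Positions, lengths and 50-base words come from GENCODE M21 (GRCm38), and promoters from RefSeq (GRCm38.p6). An octamer pattern planned at first did not hold the octamer letters, and ATGCAAAT was used instead, chosen after the windows were read. Members and lists were chosen with earlier results of these data known. All members at 1 FPKM or more in a library are named with values, and from each list of pathway genes those past the 2-fold rule and the 3 highest. One listed symbol, Znf750, had no match, and the values of 1 other listed transcription factor are not reported here. Scripts (Python 3.11.15, pandas 2.3.3, scipy 1.17.1, Biopython 1.88) were tested on simulated data.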

Additional observations from a re-analysis of the deposited data

How the results depend on the processing

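The counts of 13 higher and 3 lower members, the median and the summed Sprr2 and S100a ratios were recomputed under those of 12 alternatives that apply to each, and the 2 sums also without single members, chosen after seeing the data. Directions stayed as reported. Upper quartile scaling gave 5 lower members, S100a1 and S100a10 being added. A 1.5-fold rule gave 5 lower, and a 4-fold rule 7 higher and 1 lower. With the Sprr2 genes counted as 1 summed member, 6 were higher. The median of 0.00 became 1.26 over members with a mean of 1 FPKM or more and 0.96 over those reaching 1 FPKM in a library, since these filters remove the genes at 0. The Sprr2 log2 ratio of 6.03 was 6.17 without Sprr2f and 5.78 without Sprr2a1, Sprr2a2 and Sprr2a3, and the S100a ratio of -0.96 was -0.71 without S100a6. For the 26 named members, 180 of 230 recomputed ratios moved by less than 0.1. With a pseudocount of 0.1, 6 called members moved by over 1.5 times, Sprr2a1 from 4.18 to 6.84, Ivl from 1.26 to 3.0, Sprr2e from 1.14 to 2.34, S100a14 from 1.37 to 2.17, Crct1 from -1.27 to -3.92 and S100a3 from -2.61 to -4.40. S100a16, at 0.03, turned to -0.05 under upper quartile scaling. No paired analysis was possible because there is 1 library per genotype, and for the same reason no library could be left out. Depth limits the f/f values of Sprr2d, Sprr2e, Sprr2a1, Sprr1a and Ivl, which rest on 2 to 4 fragments.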
